A study of Mus musculus with 3 samples.

Results

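Regulatory T cells are the CD4 T cells that restrain other lymphocytes, and in an unsorted CD4 population they are a minority. Their identity rests on the transcription factor FOXP3, which works with the Ikaros family factors Helios and Eos. On their surface they carry CD25, the chain that gives the interleukin 2 receptor its high affinity, and GARP, which holds latent TGF-β. Transcripts of 9 such genes were followed here: Foxp3, Ikzf2 and Ikzf4 among the nuclear factors, Il2ra, Nrp1, Gpr83, Lrrc32 and Itgae among the surface proteins, and the cytoplasmic actin-capping gene Capg. They were taken by name from the 50600 genes of the tables, and all 9 were found. The question was whether they moved together across libraries.

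The RNA came from mouse primary T cells of the strain C57BL/6NJ, in 3 libraries of a single group that carry the biological replicate numbers 2, 3 and 4. The labels point to a CD4+ T cell differentiation protocol, give all libraries the same donor identifier and record no sex, age or stage. The file headers add the words Th0, activated and 0 h. The labels name no sort for regulatory T cells, and nothing in them says whether the libraries came from separate animals, so the spread between them may be partly technical. Totals were 47432940, 59698913 and 28340521 counted read pairs in replicates 2, 3 and 4. The T cell genes Trac, at 3374 ± 63.1 TPM, Lck, at 1715 ± 94.0 TPM, Lat, at 1406 ± 58.1 TPM, Cd3e, at 519 ± 14.3 TPM, and Cd4, at 1044 ± 24.6 TPM (SD, n = 3 throughout), were high in every library. TPM are counts corrected for exon length and scaled to a fixed total. Replicate 2 stood apart in sex-linked genes, with 151 TPM of Xist against 0.221 and 0.399 TPM in the others, and with 0.248 TPM of the Y-linked Ddx3y against 79.96 and 72.3 TPM. All 5 sex-linked genes of the lists were called by edgeR's goodness of fit, the Y-linked Eif2s3y, Kdm5d and Uty with them, beside 0.533% of all genes tested. Replicate 2 thus had the sex-linked pattern of female cells and the others that of male cells. It therefore came from a different animal or animals than replicates 3 and 4, although the labels give the same donor identifier. Whether replicates 3 and 4 came from separate animals is not given.

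The start of Foxp3 is shown because a second RNA of the locus overlaps it there, and the starts of Il2ra and Gpr83 because these genes moved differently from Foxp3. Windows of 300 bases, from 250 before to 50 after a start site, were taken from RefSeq on GRCm38.p6 (mm10), where 5 of the 9 genes matched, with 6 windows in all. The windows lie at chrX:7579426-7579725 and chrX:7580233-7580532 for Foxp3, at chr2:11642542-11642841 for Il2ra and at chr9:14859960-14860259 for Gpr83, all on the plus strand. Capitals mark matches to the STAT motif TTCNNNGAA and the TATA motif TATAAA.
Foxp3, upstream start: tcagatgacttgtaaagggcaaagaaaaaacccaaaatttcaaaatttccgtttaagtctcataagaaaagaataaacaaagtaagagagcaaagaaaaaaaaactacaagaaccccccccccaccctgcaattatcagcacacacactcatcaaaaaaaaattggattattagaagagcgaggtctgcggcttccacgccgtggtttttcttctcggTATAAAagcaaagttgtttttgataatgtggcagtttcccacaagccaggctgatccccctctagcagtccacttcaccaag
Foxp3, downstream start: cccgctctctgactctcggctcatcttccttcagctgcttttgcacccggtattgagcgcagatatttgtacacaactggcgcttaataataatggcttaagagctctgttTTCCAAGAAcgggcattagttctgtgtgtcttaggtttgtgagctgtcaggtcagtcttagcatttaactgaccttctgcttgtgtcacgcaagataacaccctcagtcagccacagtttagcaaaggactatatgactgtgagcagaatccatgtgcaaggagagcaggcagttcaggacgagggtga
Il2ra: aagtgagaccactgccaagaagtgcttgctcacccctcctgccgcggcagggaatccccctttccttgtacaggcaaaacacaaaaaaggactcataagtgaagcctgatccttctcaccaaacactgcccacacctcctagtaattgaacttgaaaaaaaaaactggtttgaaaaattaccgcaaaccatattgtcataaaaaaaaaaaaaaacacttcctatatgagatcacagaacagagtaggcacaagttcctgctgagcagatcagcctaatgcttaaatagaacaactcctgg
Gpr83: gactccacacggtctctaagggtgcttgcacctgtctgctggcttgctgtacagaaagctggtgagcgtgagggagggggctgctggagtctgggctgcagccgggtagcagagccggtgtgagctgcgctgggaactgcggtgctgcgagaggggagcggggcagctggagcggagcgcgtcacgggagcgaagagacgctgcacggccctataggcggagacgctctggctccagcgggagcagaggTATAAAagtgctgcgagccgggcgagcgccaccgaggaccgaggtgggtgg

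The STAT motif was found in the downstream Foxp3 window alone among the 6, beginning at position -139 from the start, and 8.30% of the 32851 windows of this length held it. The TATA motif was found at -32 from the upstream Foxp3 start and at -1 from that of Gpr83, and 13.6% of all windows held it. None of the 6 windows held the AP-1 motif TGACTCA (5.20% of all windows), the cyclic AMP response element TGACGTCA (1.79%) or the forkhead motif TGTTTAC (3.65%). The NFAT core GGAAA occurred 2 times in the upstream Foxp3 window and 1 time each in the downstream Foxp3, Il2ra and Nrp1 windows, against 61.3% of all windows with at least 1. Both strands were searched. These are matches of letters and not binding sites.

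The 9 transcripts spread over a wide range of levels, and 7 of them reached 1 TPM in all 3 libraries. Capg stood highest, at 46.2 ± 1.90 TPM, above 60.04% of the protein-coding genes that reached 1 TPM in all libraries. Gpr83 was above 25.1% of those genes, Ikzf4 above 23.2%, Foxp3 above 14.7% and Il2ra above 9.26%. Capg was followed by Gpr83 at 12.4 ± 1.54 TPM, Ikzf4 at 11.2 ± 0.893 TPM, Foxp3 at 6.52 ± 1.23 TPM, Il2ra at 3.93 ± 1.39 TPM, Ikzf2 at 1.55 ± 0.211 TPM and Nrp1 at 1.53 ± 0.466 TPM. Lrrc32, at 0.844 ± 0.482 TPM, passed 1 TPM in 1 library, and Itgae, at 0.229 ± 0.0892 TPM, in none. Of the 8 pairs of neighbours in this order, 4 had levels that did not overlap between libraries: Capg over Gpr83, Ikzf4 over Foxp3, Il2ra over Ikzf2, and Lrrc32 over Itgae. Ikzf2 and Nrp1 could not be ordered, since their difference of 0.05 ± 0.42 on the log2(TPM + 0.1) scale changed sign between libraries. For the other 7 pairs the sign was common to the 3 libraries. An exact permutation test that flips signs, two-sided, gave each of them p = 0.25 (adjusted p = 0.286 over 8 pairs), the smallest p that 3 libraries allow.

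**Figure D1:**
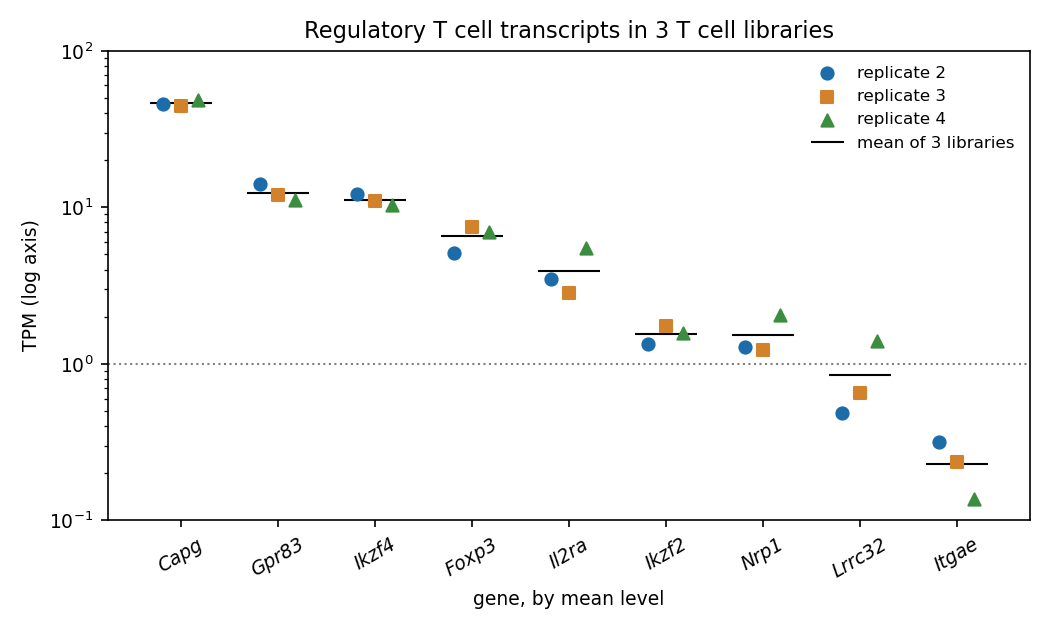
Level of each of the 9 transcripts in TPM on a log axis, with 1 point per library, a bar at the mean of the 3 libraries and a dotted line at 1 TPM. Capg stands alone at the top with libraries between 44.6 and 48.3 TPM, Gpr83 and Ikzf4 overlap, and Itgae lies below the line in every library.

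Across libraries the 9 transcripts did not share an order. Ranked by scaled counts, 3 were lowest in replicate 2 (Foxp3, Ikzf2 and Lrrc32), 3 in replicate 3 (Il2ra, Nrp1 and Capg) and 3 in replicate 4 (Gpr83, Ikzf4 and Itgae). Many of these ranks lay within counting error, judged by the exact intervals of the ratios between libraries given below. Only Foxp3 and Il2ra were lower in their lowest library than in both others beyond that error. The highest library stood above both others beyond it for Il2ra, Nrp1, Lrrc32 and Capg, in replicate 4, and for Gpr83, in replicate 2. The commonest of the 6 possible orders held 3 members. Over the 13498 genes that averaged at least 10 counts, 33.6% were lowest in replicate 2, 30.5% in replicate 3 and 35.9% in replicate 4. The median member differed by -0.03 in log2 CPM for replicate 3 minus replicate 2, by 0.29 for replicate 4 minus replicate 2 and by -0.05 for replicate 4 minus replicate 3, against medians within 0.01 of 0 over all genes tested. The last of these medians turned positive, to at most 0.05, when Foxp3, Ikzf2, Ikzf4, Gpr83 or Itgae was left out.

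No member passed the test of variation among the libraries, which sets a gene against the trend of genes of its abundance. By edgeR's goodness of fit, with Benjamini-Hochberg adjustment over all genes tested at 0.05, 0 of 9 members were called, beside 0.533% of the 13498 genes. At an unadjusted p under 0.05 it was 3 of 9, Il2ra, Lrrc32 and Nrp1, beside 4.1% of all genes. The smallest adjusted p was that of Il2ra, at 0.115 in edgeR's test, and the others lay at 0.848 for Lrrc32, 0.904 for Nrp1 and 1.00 for the remaining 6. All 9 members passed the count minimum, Itgae with a mean of 14.0 counts. The variation that the trend allows was wide for the scarce members, with a biological coefficient of variation of 30.1% for Itgae and 24.0% for Lrrc32, against 7.86% for Capg.

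**Figure D2:**
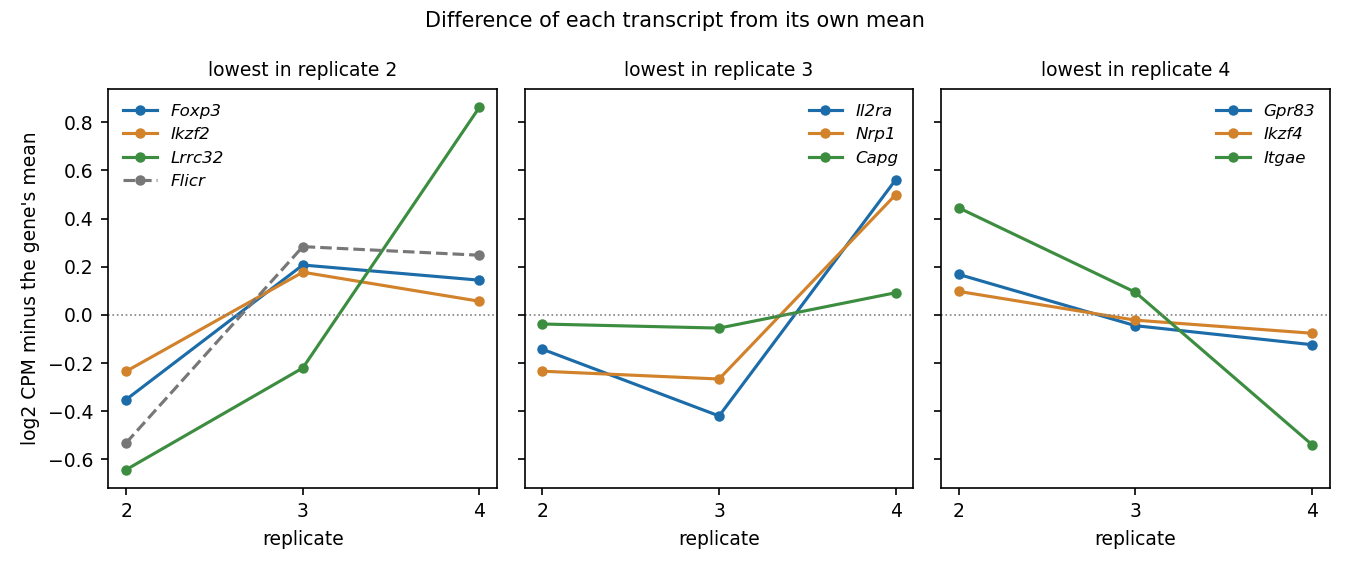
Difference of each transcript's log2 CPM from its own mean over the 3 libraries, in panels by the library where it was lowest, with Flicr, a further RNA of the Foxp3 locus, dashed. Lines only join the points of a gene, since replicates have no order. Foxp3, Ikzf2 and Flicr dip in replicate 2. Il2ra, Nrp1, Lrrc32 and, by a small margin, Capg peak in replicate 4, and Gpr83, Ikzf4 and Itgae are lowest in replicate 4. These last genes are within counting error of replicate 3 there.

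Among the nuclear factors, Foxp3 and Ikzf2 had the same order of libraries, with replicate 2 lowest and replicate 3 highest, whereas Ikzf4 was highest in replicate 2 and lowest in replicate 4. Foxp3 (ENSMUSG00000039521.12, mm10 chromosome X, 7579676 to 7595243, plus strand, 3989 exon bases) had 269, 495 and 222 counts in replicates 2, 3 and 4. These were 5.12, 7.45 and 6.98 TPM, with replicate 2 lowest and the others close together. The ratio of scaled counts was 1.48 for replicate 3 over 2, with a 95% exact interval from 1.27 to 1.72, 1.41 for replicate 4 over 2 (1.18 to 1.69) and 0.957 for replicate 4 over 3 (0.813 to 1.12). Such intervals cover counting error only, and Foxp3 was not called (edgeR goodness of fit, adjusted p = 1.00). Set against Cd4 in the same library, Foxp3 was at 0.503%, 0.699% and 0.666% of the Cd4 level in TPM. In such bulk RNA, fewer regulatory T cells and less RNA per cell cannot be told apart.

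Ikzf2, which encodes Helios (ENSMUSG00000025997.13, chromosome 1, 69531214 to 69687245, minus strand), was at 1.33, 1.75 and 1.58 TPM in replicates 2, 3 and 4, from 204, 339 and 146 counts. Replicate 2 was again lowest. The ratio of replicate 3 over 2 was 1.33 (95% exact interval 1.12 to 1.59), while that of replicate 4 over 2, at 1.23 (0.984 to 1.52), included 1. Ikzf4, which encodes Eos, a corepressor partner of FOXP3 (ENSMUSG00000002578.16, chromosome 10, 128632415 to 128645993, minus strand), was at 12.1, 11.01 and 10.4 TPM. Its 3 ratios between libraries lay between 0.886 and 0.963, and every interval included 1. Ikzf4 was thus above Foxp3 in TPM in every library, and replicate 2 was its highest.

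A second RNA of the Foxp3 locus followed Foxp3. Flicr is a long non-coding RNA that starts upstream of Foxp3 and in mouse regulatory T cells is known to act on Foxp3 expression. Its gene (ENSMUSG00000039545.15, chromosome X, 7573600 to 7581015, plus strand) spans both windows of Foxp3 shown above. It had 52, 116 and 53 counts, or 1.11, 1.95 and 1.86 TPM, in replicates 2, 3 and 4. Replicate 2 was lowest here too, with a ratio of 1.79 for replicate 3 over 2 (95% exact interval 1.28 to 2.53) and of 1.75 for replicate 4 over 2 (1.17 to 2.61). Flicr was chosen after its values were seen and was not called either. Foxp3 and Flicr lie on the same strand and share 267 exon bases, 6.69% of those of Foxp3, where read pairs could be assigned to either or lost. Ccdc22, on the opposite strand, overlaps 590 exon bases of Foxp3 and was counted apart by strand, at 6.56, 5.77 and 7.06 TPM.

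Foxp3 lies on chromosome X, and replicate 2, where it was lowest, was also the library with Xist. The median log2 difference of the 427 X-linked genes tested, leaving out Xist and Tsix, was 0.01 for replicate 3 minus 2 and -0.03 for replicate 4 minus 2. Whether the sex-linked difference between the libraries had a part in the values of Foxp3 and Flicr was not tested.

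Il2ra, Nrp1 and Lrrc32 were all highest in replicate 4. Il2ra, which encodes CD25 and is also induced by activation in other T cells (ENSMUSG00000026770.5, chromosome 2, 11642807 to 11693193, plus strand), had 262, 269 and 250 counts in replicates 2, 3 and 4. These gave 3.48, 2.83 and 5.49 TPM, with replicate 4 above both others. The ratio of replicate 4 over 3 was 1.98 (95% exact interval 1.66 to 2.36), that of replicate 4 over 2 was 1.63 (1.37 to 1.95), and that of replicate 3 over 2 was 0.824 (0.692 to 0.980). Il2ra was called by edgeR's test with replicates 3 and 4 alone (adjusted p = 0.0216), where 0.26% of all genes were called. It was not called in the main test on all 3 libraries, nor with replicate 3 or replicate 4 left out. It was also called under a common dispersion (adjusted p = 0.00467), where Lrrc32 passed as well (adjusted p = 0.00686) and 2.31% of all genes did.

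Nrp1, the gene of neuropilin-1, a semaphorin receptor that marks regulatory T cells of thymic origin and also plasmacytoid dendritic cells in the mouse (ENSMUSG00000025810.9, chromosome 8, 128358604 to 128503363, plus strand), was at 1.28, 1.23 and 2.06 TPM in replicates 2, 3 and 4. The first pair agreed within counting error (ratio 0.977, 0.792 to 1.21), and replicate 4 exceeded replicate 3 with a ratio of 1.71 (1.38 to 2.11). Lrrc32, which encodes GARP (ENSMUSG00000090958.2, chromosome 7, 98489283 to 98502181, plus strand), had only 30, 51 and 52 counts, or 0.486, 0.653 and 1.39 TPM. Its ratio was 2.97 for replicate 4 over 2 (95% exact interval 1.86 to 4.82) and 2.18 for replicate 4 over 3 (1.45 to 3.27), and the intervals are wide at these counts.

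Of the 27 ratios between libraries of the 9 members, 14 had a counting interval that left out 1, in 7 members. The same held for 38.2% of the ratios of all genes tested, and for 30.1% of those of the 7363 genes with a mean count within the range of the members. Such an interval takes in no variation beyond counting, so many genes pass it.

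**Figure D3:**
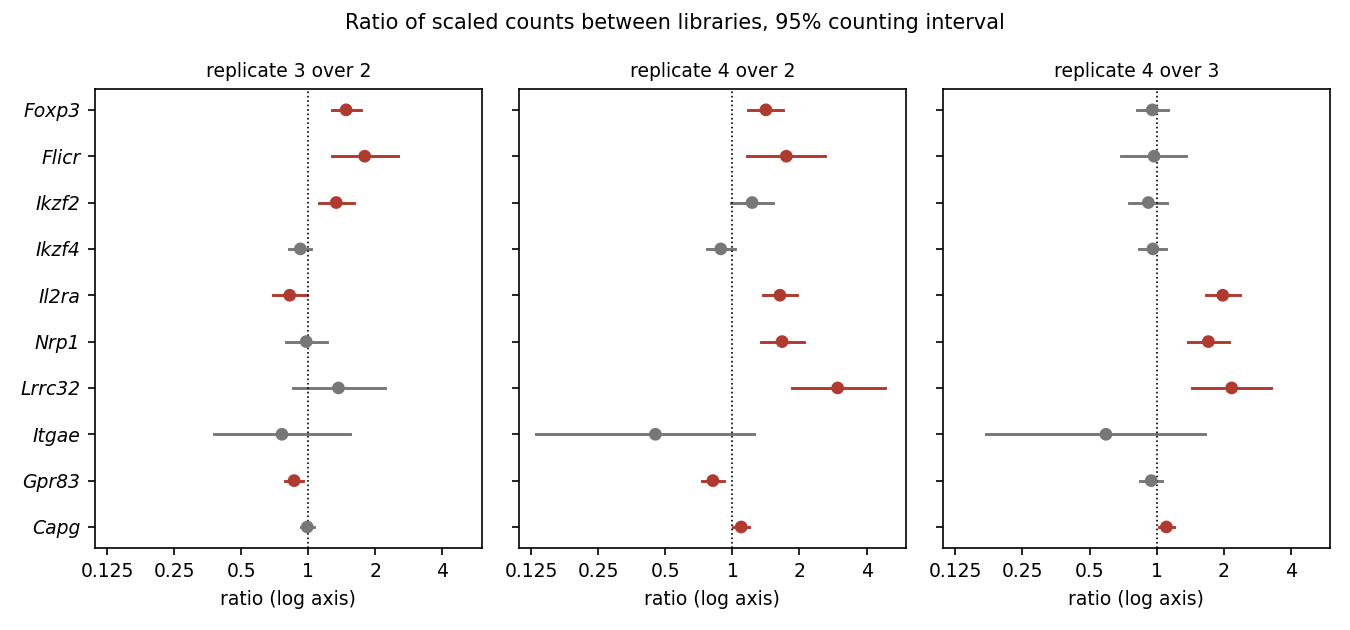
Ratio of scaled counts for each pair of libraries on a log axis, with 95% exact intervals for counting error, in red where the interval leaves out 1. Foxp3 and Ikzf2 lie above 1 for replicate 3 over 2. Il2ra, Nrp1, Lrrc32 and, by a small margin, Capg do so for replicate 4 over 2 and over 3. Gpr83 lies below 1 for replicates 3 and 4 over 2.

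Early response genes were also highest in replicate 4, in part. Fos, an AP-1 subunit induced within minutes of stimulation, was at 30.8, 27.2 and 122 TPM in replicates 2, 3 and 4 (edgeR goodness of fit, adjusted p = 2.31e-48), and Jun, its partner, at 51.7, 42.8 and 143 TPM (adjusted p = 3.72e-30). Of the 6 genes of that list, chosen after the data were seen, 3 were called, with Junb, beside 0.533% of all genes tested. In replicate 4, 4 were highest, beside 35.5% of all genes tested. Among them was Nr4a1, at 98.2, 100.01 and 105 TPM, which was not called. The activation marker Cd69, however, was at 52.6, 44.6 and 41.2 TPM, and Egr1 was highest in replicate 3, at 69.8, 79.6 and 74.1 TPM. Neither was called. Whether these genes had a part in the values of Il2ra, Nrp1 and Lrrc32 was not tested.

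Gpr83 and Itgae, on the cell surface, were lowest in replicate 4, though within counting error of replicate 3. Gpr83, a G protein-coupled receptor gene that FOXP3 induces in mouse (ENSMUSG00000031932.14, chromosome 9, 14860210 to 14870789, plus strand), had 948, 1019 and 452 counts, or 14.1, 12.0 and 11.1 TPM, in replicates 2, 3 and 4. Its ratio was 0.816 for replicate 4 over 2 (95% exact interval 0.728 to 0.914) and 0.863 for replicate 3 over 2 (0.789 to 0.943), opposite in direction to Foxp3 over the same libraries. That of replicate 4 over 3, at 0.947 (0.845 to 1.06), included 1. Itgae, the αE integrin chain CD103, also found on CD8 T cells and dendritic cells (ENSMUSG00000005947.11, chromosome 11, 73090583 to 73147446, plus strand), had 19, 18 and 5 counts, and no ratio of it could be told from 1 at this depth. Capg (ENSMUSG00000056737.14, chromosome 6, 72544391 to 72562983, plus strand), which macrophages also express, was at 45.8, 44.6 and 48.3 TPM. Its coefficient of variation of 4.11% was the smallest of the set, and its largest ratio was 1.11 for replicate 4 over 3 (1.02 to 1.20).

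Of 22 other genes of regulatory T cells, 13 reached 1 TPM in all 3 libraries. Of the 16 tested, 0 were called by edgeR's test and 2, Entpd1 and Penk, had an unadjusted p under 0.05. Over all genes tested these shares were 0.533% and 4.1%. The highest were Izumo1r, the gene of folate receptor 4, at 185 ± 9.43 TPM, Tnfrsf18, which encodes GITR, at 94.99 ± 3.95 TPM and the tumour necrosis factor receptor gene Tnfrsf1b at 74.8 ± 2.36 TPM, all of which other T cells express as well. Ctla4, the inhibitory receptor gene, was at 9.52, 8.71 and 8.88 TPM in replicates 2, 3 and 4, with no dip in replicate 2. Entpd1, at 0.0953, 0.334 and 0.494 TPM, Tigit, at 1.18, 2.56 and 1.95 TPM, and Prdm1, at 4.67, 5.38 and 5.69 TPM, were lowest there. In TPM so were Nt5e, Tnfrsf1b and Il2rb, while the remaining tested genes of the list were not. Of all genes tested, 33.6% were lowest in replicate 2 by scaled counts. Over the 16 tested, 4 were highest in replicate 2, 3 in replicate 3 and 9 in replicate 4. The shares over all genes tested were 33.9%, 30.6% and 35.5%. Il10, an inhibitory cytokine gene, had 2 counts over the 3 libraries and Areg 0, where 3 pooled counts would be 0.0653 TPM. Klrg1 was at 0.451 ± 0.249 TPM, the chemokine receptor gene Ccr8 at 4.80 ± 0.980 TPM, and the costimulatory receptor genes Icos and Tnfrsf4 at 39.2 ± 4.61 and 38.9 ± 4.62 TPM.

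Genes that induce Foxp3 or work with its product were abundant. All 26 reached 1 TPM in each of the 3 libraries. EdgeR called 0 of them, with 0 under an unadjusted p of 0.05, beside 0.533% and 4.1% of all genes tested. The transcription factor gene Ets1, at 859 ± 76.5 TPM, the kinase gene Jak1, at 671 ± 47.9 TPM, and the common γ chain gene Il2rg, at 646 ± 13.4 TPM, led the list. Il2rb, the gene of the β chain that pairs with the common γ chain in the interleukin 2 receptor, was at 46.3 ± 1.81 TPM. Transcripts of all chains of that receptor were thus present, and Il2ra was by far the lowest. Stat5b, which carries its signal, was at 217, 203 and 200 TPM.

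Of 10 genes known to be low in regulatory T cells, 8 reached 1 TPM in all 3 libraries. Of 8 tested, 1 was called and 2 had an unadjusted p under 0.05, beside 0.533% and 4.1% of all genes tested. The called gene was Il7r, the interleukin 7 receptor chain, at 875, 607 and 556 TPM in replicates 2, 3 and 4 (edgeR goodness of fit, adjusted p = 0.0449). The other was Dapl1, at 322, 446 and 417 TPM (edgeR, adjusted p = 0.370). Il7r was thus highest, and Dapl1 lowest, in replicate 2, where Foxp3 was lowest. The factor gene Tcf7, at 2947 ± 117 TPM, and Igfbp4, at 885 ± 85.5 TPM, were not called, and Igfbp4 was at 789, 910 and 954 TPM, lowest in replicate 2. Of 20 effector and memory genes 15 reached 1 TPM in all 3 libraries. Of 19 tested, 0 were called and 4 had an unadjusted p under 0.05, beside 0.533% and 4.1% of all genes tested. Vim was at 238 ± 7.35 TPM, S100a10 at 215 ± 17.2 TPM and Crip1 at 171 ± 16.6 TPM. Of the 19, 10 were highest in replicate 3, beside 30.6% of all genes tested.

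Markers of other cells that express some members were set beside them. Of 11 dendritic cell markers 5 reached 1 TPM in all 3 libraries, with Cd74 at 117 ± 22.6 TPM, H2-Eb1 at 30.9 ± 8.38 TPM and H2-Ab1 at 24.6 ± 6.59 TPM, and their summed level was 197, 239 and 158 TPM in replicates 2, 3 and 4. Cd74 and the H2 genes, which make up most of that sum, are also expressed by B cells. Siglech, Itgax and Flt3, which are closer to dendritic cells, were highest in replicate 4, as Nrp1 was, at low counts. Others of the list were not. Zbtb46 was highest in replicate 3, at 0.0357, 0.155 and 0.0442 TPM, and Ccr9 in replicate 2, at 2.69, 1.57 and 1.94 TPM. The plasmacytoid marker Siglech was at 0.0673, 0.0178 and 0.148 TPM, from only 3, 1 and 4 counts. Itgax was at 0.395, 0.350 and 0.862 TPM and Flt3 at 0.0492, 0.0973 and 0.244 TPM, while Xcr1 was at 0 counts. Of the 9 B cell markers 8 were highest in replicate 3, beside 30.6% of all genes tested. The 9 summed to 66.8, 79.1 and 52.5 TPM, with 7 at 1 TPM or above throughout, led by Ighd, Cd79a and Cd79b. Of 10 macrophage and monocyte markers 2 passed, Cd68 at 13.3 ± 0.314 TPM and Lyz2 at 1.75 ± 0.418 TPM, while Csf1r was at 0.302 ± 0.195 TPM and Cd14, Fcgr1 and Ms4a7 were at 0 counts. The sum was 15.1, 16.4 and 16.3 TPM. Of these 3 lists edgeR called 0 genes, beside 0.533% of all genes tested. An unadjusted p under 0.05 was found for 5 of 6 dendritic, 3 of 9 B cell and 1 of 3 macrophage markers tested, beside 4.1% of all genes. Their part in the levels of Nrp1, Itgae and Capg was not tested.

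Of the CD8 markers Cd8a was at 0.534 ± 0.182 TPM and Cd8b1 at 33.6 ± 3.00 TPM, summing to 36.8, 34.5 and 31.2 TPM. That sum was nearly all Cd8b1, at 36.5, 33.9 and 30.5 TPM in replicates 2, 3 and 4. Cd8a went the other way, at 0.334, 0.578 and 0.690 TPM, from 16, 35 and 20 counts. Of 6 NK cell markers 2 reached 1 TPM in all 3 libraries, Gzma at 5.73 ± 0.933 TPM and Eomes at 4.50 ± 0.754 TPM, with Klra8 at 1.04 ± 0.294 TPM, and the sum was 11.6, 12.5 and 14.8 TPM. For Lrrc32, which platelets and endothelium also express, the platelet markers Pf4, Gp9, Ppbp and Gp1bb were at 0 counts in all libraries and Itga2b was at 3.50 ± 0.423 TPM. The endothelial markers Emcn and Plvap were at 0 counts, Kdr had 2 counts over the 3 libraries and Cdh5 was at 0.257 ± 0.0912 TPM, whereas Pecam1, which T cells express, averaged 155 TPM. Mast cell and basophil markers summed to at most 0.296 TPM in any library, with Kit at 0.135 ± 0.0328 TPM, Ms4a2 and Mcpt8 at 6 and 1 counts over the 3 libraries and Fcer1a at 0 counts.

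The profile of Foxp3 was also found in genes with other roles. Among the 8496 protein-coding genes with a mean count of at least that of Foxp3, the closest by the distance between centred log2 CPM over the 3 libraries included Hspa4l, Zfp763, Stip1 and Hsp90aa1, with distances from 0.00781 to 0.0335. Hspa4l, a chaperone of the HSP110 family, was at 6.75, 9.85 and 9.25 TPM in replicates 2, 3 and 4, and Hsp90aa1 at 171, 253 and 229 TPM. The closest member, Ikzf2, was at a distance of 0.149 and Flicr at 0.221, while Gpr83 was at 0.637 and Il2ra at 0.781. With 3 libraries many genes lie close to any profile, and the likeness is a description.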

How the data were processed

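The authors deposited raw counts for each gene, made from read pairs with featureCounts 1.4.6-p4 over exons of GENCODE vM13 on mm10, with reverse strand counting, per the file headers. Per the labels this was total RNA, although the linked library protocol is named for poly(A)+ RNA. The aligner was not given in the sources used here. Counts were used as deposited, and TPM were computed from counts and the tables' exon lengths (column Length). Symbols were matched by Ensembl identifier for 50376 of 50600 genes. With 1 group and so no contrast, variation was tested by how well a negative binomial model with an intercept alone described each gene (edgeR 4.0.16, R 4.3.3, goodness of fit) across all 13498 genes averaging at least 10 counts (TMM scaling, trended dispersion), and the test was checked on simulated data. Log2 CPM used a prior count of 2. Ratios between libraries used TMM-scaled totals and 95% Clopper-Pearson intervals. Genes named were the members, the 3 highest and any called gene of each list, Cd4, Cd3e and Trac as T cell references, Xist, Ddx3y, and the 5 nearest to Foxp3, of which 1 is not reported here. Other genes of the lists, Flicr and the early response list were chosen after their values were seen. Members and lists were chosen with earlier results of these data known. Alternatives were DESeq2 1.42.0 size factors, no scaling factor, other count minimums, prior counts and pseudocounts, a common dispersion, other TPM totals and each replicate left out. Python 3.11.15, scipy 1.17.1 and matplotlib 3.10.9 were used.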

Additional observations from a re-analysis of the deposited data

How the results depend on the processing

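The count of members called was 0 under DESeq2 size factors, library size alone and mean count minimums of 1 and 50 (Itgae and Lrrc32 drop out at 50), became 2 under a common dispersion (Il2ra and Lrrc32), and ranged from 0 to 1 when a replicate was left out, Il2ra passing without replicate 2. Over all genes the calls numbered 72, against 312 under a common dispersion and between 35 and 46 with a replicate left out; the tests with fewer libraries had fewer samples. The order of libraries of each member was the same under both other scalings and a prior count of 0.5. The median differences of the members moved by less than the SD, over the 3 libraries, of the members' median log2 CPM. The median of the members' mean levels was 3.93 TPM, and between 3.16 and 4.49 TPM with a replicate left out. Single levels moved by less than 1 SD in every alternative run except Capg, at 49.9 TPM over protein-coding genes alone. Pseudocounts of 1 and 0.01 left 7 of 8 neighbour pairs with a common sign. Depth limits Itgae and Lrrc32 most. No paired analysis was possible because the labels give 1 group.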

Other observations

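The tables also count RNA from the strand opposite to the members. Haspin, a mitotic kinase gene that lies within Itgae, was at 8.76, 9.45 and 7.90 TPM in replicates 2, 3 and 4, far above Itgae at 0.315, 0.236 and 0.137 TPM, and shares no exon base with it. Gm36995, which overlaps 373 exon bases of Foxp3 on the opposite strand, was at 1.79, 1.63 and 1.42 TPM, from 135, 155 and 65 counts. It was highest in replicate 2, where Foxp3 was lowest, but lowest in replicate 4, whereas Foxp3 was highest in replicate 3. The antisense gene Gm29114 at Ikzf2 had 0 counts in every library.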
